A study of Drosophila melanogaster with 4 samples.

Results

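Wide H2Av domains are stretches inside the arms 2L, 3L and 3R that the authors gave as a single enriched region of at least 7 kb in their list for the replicate set (the combined list). They were chosen by that width, a measured value, and by position. Midpoints had to lie outside the first 3 Mb and last 1.5 Mb of 2L and 3L, and outside the first 1.5 Mb and last 3 Mb of 3R. By this rule 317 regions were wide domains, out of 1923 regions inside these arms and 4698 in the combined list. The cells were S2-DRSC, a male Drosophila melanogaster line derived from late embryos. All had been treated with double-stranded RNA to GFP, which has no target in flies, so every library is of a control RNAi culture. The RNA was given in 2 rounds, of 50 and then 200 ug, for every library. The samples were 2 libraries from H2Av immunoprecipitation with a rabbit polyclonal antibody and 2 libraries of input chromatin. Each immunoprecipitated library has a list of its own, with 4198 regions in replicate 1 and 4070 in replicate 2. No list of the input libraries was analysed here. Read depth is unknown, no label says that the replicates came from separate cultures, and the spread between their lists may be technical.

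H2Av is the histone H2A variant of flies that does the work of both H2A.Z and H2A.X. As H2A.Z it replaces H2A in nucleosomes near the starts of active genes, placed there by remodelling complexes, and it is also found in heterochromatin. As H2A.X it is phosphorylated near DNA breaks. Positions below are those of FlyBase release 5, and no genes, promoters or sequence are given, since only a release 6 gene table was used here.

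Width chose the domains, so their number, widths and scores are a description without a test. They made up 16.5% of the regions inside the 3 arms and 38.0% of the sequence these regions cover, 3.40 of 8.94 Mb. Their median width was 9.02 kb, with quartiles at 7.82 and 12.1 kb, against a median of 3.36 kb for the other 1606 interior regions. Most lay near the limit: 92 were under 8 kb, 97 were from 8 to 10 kb, 89 from 10 to 15 kb, 26 from 15 to 20 kb and 13 at least 20 kb. The narrowest of each arm measured 7003 bp on 2L, 7029 bp on 3L and 7021 bp on 3R.

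Each arm held about 5 wide domains per Mb. There were 96 on 2L, 101 on 3L and 120 on 3R, which is 5.19, 5.04 and 5.13 per Mb of arm interior. 2L had the widest upper quartile, at 14.0 kb against 11.0 kb on 3L and 11.9 kb on 3R, and its domains covered 6.15% of the interior against 5.06% and 5.32%. Along the arms the spread was uneven. Over 61 full windows of 1 Mb the median was 5 wide domains, the lowest window held 0 (2L from 14 to 15 Mb, with 5 regions of any width) and the highest held 16 (2L from 10 to 11 Mb, with 46 regions). Windows with more regions of any width held more wide domains (Spearman rho 0.633 over 61 windows, which share their arms, given as a description). The wide domains are counted among the regions of any width, so part of this relation is built in.

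The score is the authors' own value for each region, on a scale that the sources used here do not give, and it is used only to rank and describe. Wide domains had a median combined score of 2.08, with quartiles at 1.81 and 2.33, against 1.51 for the other interior regions. Only 1 of 317 scored below 1, where 30.7% of all interior regions did. The comparison with the rest is one of width as well, since 7.60% of the other regions from 4 kb up to the limit scored below 1 and their median was 1.99. Among the wide domains themselves width and score were nearly unrelated (Spearman rho 0.124 across domains). Close to the limit, 51 domains up to 500 bp above it scored 2.13 at the median and lay a median of 1445 bp from the nearest neighbour. The 58 regions up to 500 bp below it scored 2.02 and lay 2033 bp from theirs. Whether the limit marks a step was not tested.

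**Figure D1:**
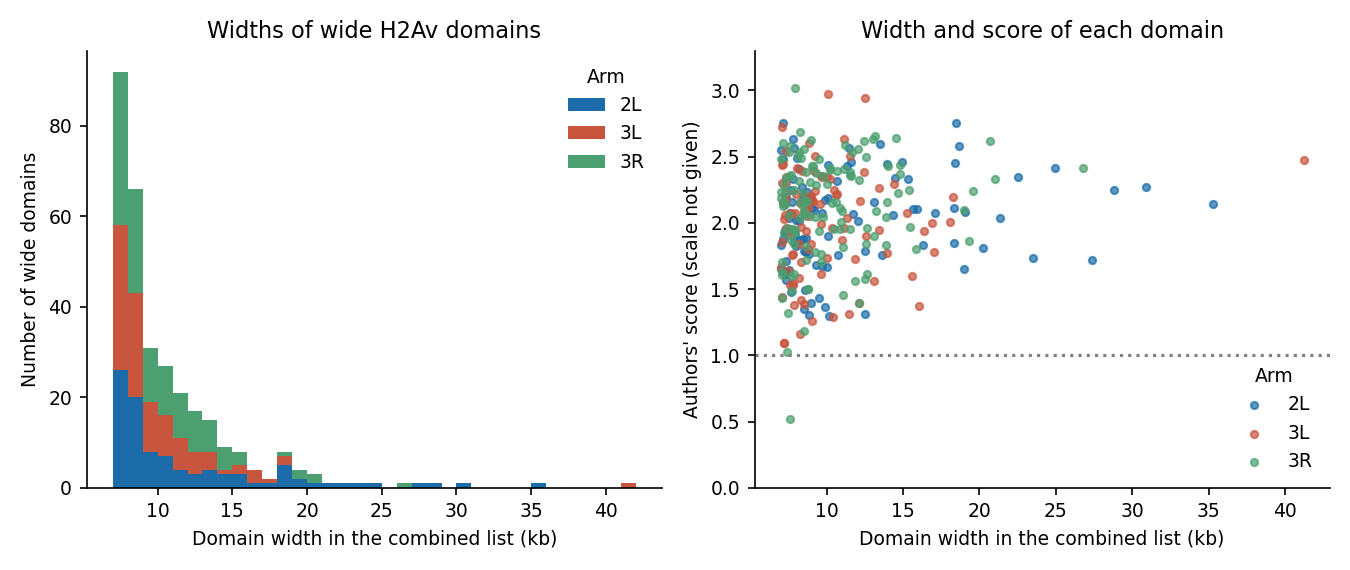
Widths of the 317 wide domains in bins of 1 kb, stacked by arm (left), and the authors' score of each domain against its width (right), with a dotted line at a score of 1. Most domains lie in the bins next to the limit, 13 domains reach 20 kb, and 1 domain on 3R lies below the line.

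The score of a domain in a replicate was taken as the mean score of the replicate regions in it, weighted by overlap. The median was 2.06 in replicate 1 and 2.20 in replicate 2, and 288 of the 317 domains scored higher in replicate 2, by a median of 0.147 over all 317. No such share over the other interior regions is given here, so this is not taken as particular to wide domains. The 2 replicates ranked the domains alike (Spearman rho 0.956 across domains, a description over regions that both libraries share). The highest-scoring domain lay on 3R from 17847018 to 17854980, scoring 3.02 in the combined list. Its score was 3.01 in replicate 1 and 3.10 in replicate 2. The next, on 3L from 19792028 to 19802152, scored 2.97, 2.94 and 3.05. Both were single regions in both replicate lists.

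The lowest-scoring wide domain, on 3R from 7386318 to 7393958, scored 0.521 in the combined list, and it was broken up in both replicates. Replicate 1 called it as 2 regions of 3591 and 1521 bp, scoring 0.694 and 0.441. Replicate 2 called it as 3 regions of 1327, 1428 and 3403 bp, scoring 0.494, 0.522 and 0.616. No replicate region in it reached 4 kb, so the 7641 bp of the combined list were wide in that list alone. The second lowest, on 3R from 17483068 to 17490514 (score 1.02), was a single region of 5236 bp in replicate 1 and of 5260 bp in replicate 2. Both calls began over 2 kb inside the left edge, at 2079 and 2160 bp.

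How the domains looked in the replicate lists was the main question. A domain counts as split in a replicate when at least 2 regions of that list overlap it by at least 1 bp. All 317 wide domains overlapped both replicate lists, against 82.0% of all interior regions. A wide region meets 1 bp of overlap more easily, and the replicate lists are not independent of the combined list. That difference is therefore no measure of how well wide domains were reproduced. Replicate 1 split 80 domains (25.2%, 95% Wilson interval 20.8 to 30.3) and replicate 2 split 93 (29.3%, 24.6 to 34.6). Over all interior regions, wide ones included, the shares were 4.89% in replicate 1 and 5.82% in replicate 2. A wide region has more room for a break, and width chose the domains, so nothing is read from that difference. The intervals cover counting error only and treat domains as independent.

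Most wide domains were a single region in both lists, 203 of 317 (64.0%, Wilson interval 58.6 to 69.1; 74.6% of all interior regions). Another 59 were split in both lists (18.6%, 14.7 to 23.3; 3.28% of all interior regions). Replicate 1 alone split 21 (1.61% of all interior regions) and replicate 2 alone split 34 (2.55%). Of the 80 domains split in replicate 1, 59 were also split in replicate 2 (73.8%), against 34 of the 237 that were whole in replicate 1 (14.3%). Over all interior regions, 63 of the 94 split in replicate 1 were also split in replicate 2. Wider domains were split more often in both lists, as given below, so nothing is read from that contrast. The number of regions was equal in 252 domains, larger in replicate 1 in 26 and larger in replicate 2 in 39. Breaks into more than 2 regions were rare, with 9 domains in replicate 1 and 13 in replicate 2.

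**Figure D2:**
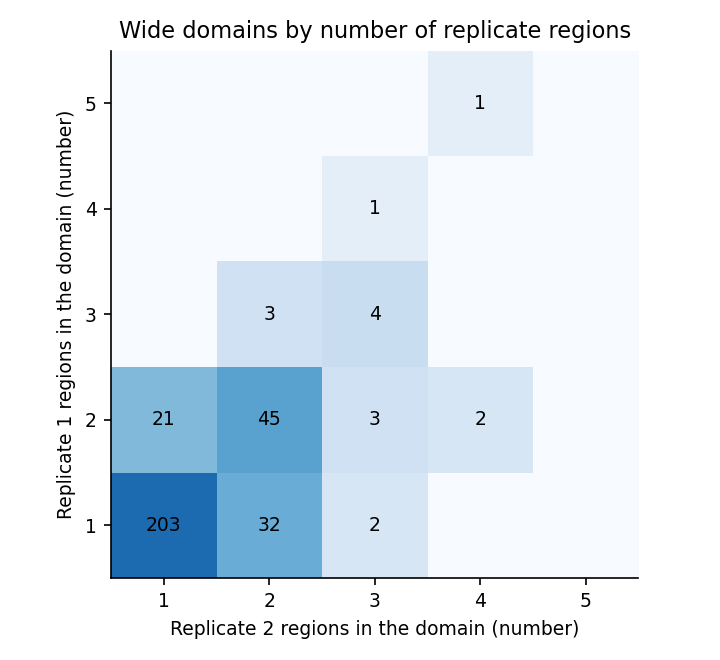
Number of wide domains by how many replicate 1 regions (vertical axis) and replicate 2 regions (horizontal axis) overlap them, with darker cells holding more. The diagonal holds 252 of the 317 domains, 203 of them as a single region in both lists.

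The share split was higher among wider domains in both replicates. Of domains under 8 kb, 14.1% were split in replicate 1 and 13.0% in replicate 2. From 8 to 10 kb the shares were 25.8% and 27.8%, and from 10 to 15 kb 24.7% and 31.5%. From 15 to 20 kb the shares were 46.2% and 65.4% of 26 domains, and at 20 kb or more they were 61.5% and 69.2% of 13. Domains split in both lists measured 10.4 kb and scored 1.88 at the median, and those whole in both measured 8.64 kb and scored 2.16. None of these differences was tested. By arm, replicate 1 split 29.2% of the domains on 2L, 26.7% on 3L and 20.8% on 3R, with overlapping Wilson intervals (21.0 to 38.9, 19.1 to 36.1 and 14.5 to 28.9). Replicate 2 split 32.3%, 27.7% and 28.3%.

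The opposite case, a replicate region that joins a wide domain to another combined-list region, did not occur. Joined were 0 of 317 wide domains in each replicate, which allows a share of up to 0.946%, against 0.104% of all interior regions in replicate 1 and 0.208% in replicate 2, so wide domains cannot be told from the rest here. The lists are not independent, and replicate calls mostly began and ended inside the combined edges. Replicate regions that met the width rule on their own could therefore hardly miss a wide domain, and nothing is read from their overlap. On wide domains fell 239 of 240 in replicate 1 and all 228 in replicate 2. The exception was a replicate 1 region of 7539 bp on 3R from 8785911 to 8793449, singled out after its values were seen. The combined list gave it as 2 regions of 3219 and 4493 bp, with scores of 1.95 and 0.646, set 51 bp apart.

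Some domains were wide in the combined list alone. All domains were chosen for reaching 7 kb there, and replicate calls mostly began and ended inside the combined edges. Domains just above the limit can thus fall below it in the replicates. A single replicate region of at least 7 kb lay in 199 domains in both lists (62.8%), and in 66 (20.8%, Wilson interval 16.7 to 25.6) neither replicate had such a region. Of these 66, 33 were split in both replicates, 26 were whole in both but shorter, and 7 were split in one list. Their median combined width was 7.93 kb, and their longest replicate regions had a median of 5.59 kb in each list.

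The widest domains showed what the breaks look like. The widest, on 3L from 16569382 to 16610574, spans 41.2 kb. Replicate 1 divided it at a gap of 360 bp into 23998 and 16464 bp, with scores of 2.59 and 2.14. Replicate 2 broke it at about the same place, with a gap of 397 bp, and at 2 further points, into 16.8, 7.01, 6.98 and 9.34 kb. Its scores ran 2.83, 2.18, 2.27 and 2.51 from left to right, and the first of its gaps was 1 bp long. A region of 3705 bp lay 77 bp to the left.

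The second widest domain of these arms, on 2L from 10416886 to 10452164, had a high body and a low right end. Replicate 1 gave a region of 28.1 kb scoring 2.26 and then, beyond a gap of 1524 bp, 2 short ones scoring 0.612 and 0.692. Replicate 2 gave 25.1 kb scoring 2.58, then 3148 bp scoring 0.760, and beyond a gap of 4669 bp a last one scoring 0.629. That gap was the longest inside any wide domain, and it took in nearly all of the 1524 bp gap of replicate 1 and the first of its short regions. Replicate 1 covered 89.6% of the domain and replicate 2 covered 84.6%.

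Other very wide domains were unbroken. The domain on 2L from 4952278 to 4983190, 30.9 kb, was a single region of 29379 bp in replicate 1 and of 29377 bp in replicate 2, with scores of 2.21 and 2.39. On 3R, the domain from 13618780 to 13638388 (19.6 kb) was single in both lists at 19279 and 19434 bp. The widest of 3R, from 5578498 to 5605258 (26.8 kb), was a single region of 26529 bp in replicate 1, but replicate 2 called it as 8659, 4058 and 13656 bp scoring 2.63, 2.79 and 2.39.

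Some wide domains were divided once in each replicate. On 2L, the domain from 4438820 to 4467646 was divided by a gap of 35 bp in replicate 1 and of 212 bp in replicate 2. These gaps did not overlap, and their midpoints were 318.5 bp apart. The left part scored 1.83 and 2.01 and the right part 2.46 and 2.63. A domain on 3R, from 8246680 to 8267396, was divided by gaps of 169 and 105 bp that did not overlap either. There the left part was the higher, at 2.81 against 1.71 in replicate 1 and 2.94 against 1.78 in replicate 2. On 3L, the domain from 8945034 to 8963270 had a longer gap, of 1331 and 1540 bp and overlapping, between parts that scored 2.05 and 2.37 in replicate 1 and 2.25 and 2.53 in replicate 2.

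Further domains among the 5 widest of their arm varied in form. On 2L, the domain from 21145568 to 21170532 was divided into regions scoring 2.28 and 2.48 in replicate 1 and 2.39 and 2.70 in replicate 2. The 3L domain from 3038912 to 3057000 had gaps of 544 and 463 bp between parts scoring 2.10 and 1.93 in replicate 1 and 2.16 and 2.01 in replicate 2. The 3L domain from 20414268 to 20431148 was broken near its right end in both lists, and its calls began 2275 and 2678 bp inside the left edge. The 3R domain from 7050684 to 7071666 opened with about 3 kb scoring 1.26 in replicate 1 and 1.63 in replicate 2, ahead of about 17 kb scoring 2.42 and 2.59. The 3R domain from 12293894 to 12313178 was whole in replicate 1, and replicate 2 set off 3353 bp at its left end scoring 2.48, against 1.80 for the rest.

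Of the narrowest domains, those on 2L (12044126 to 12051128) and 3R (20637596 to 20644616) were single regions in both lists, each of under 7 kb. The one on 3L, from 9479308 to 9486336, was split in both. Its left part scored 2.15 and 2.18 and its right part 0.693 and 0.655, across gaps of 914 and 1677 bp.

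**Figure D3:**
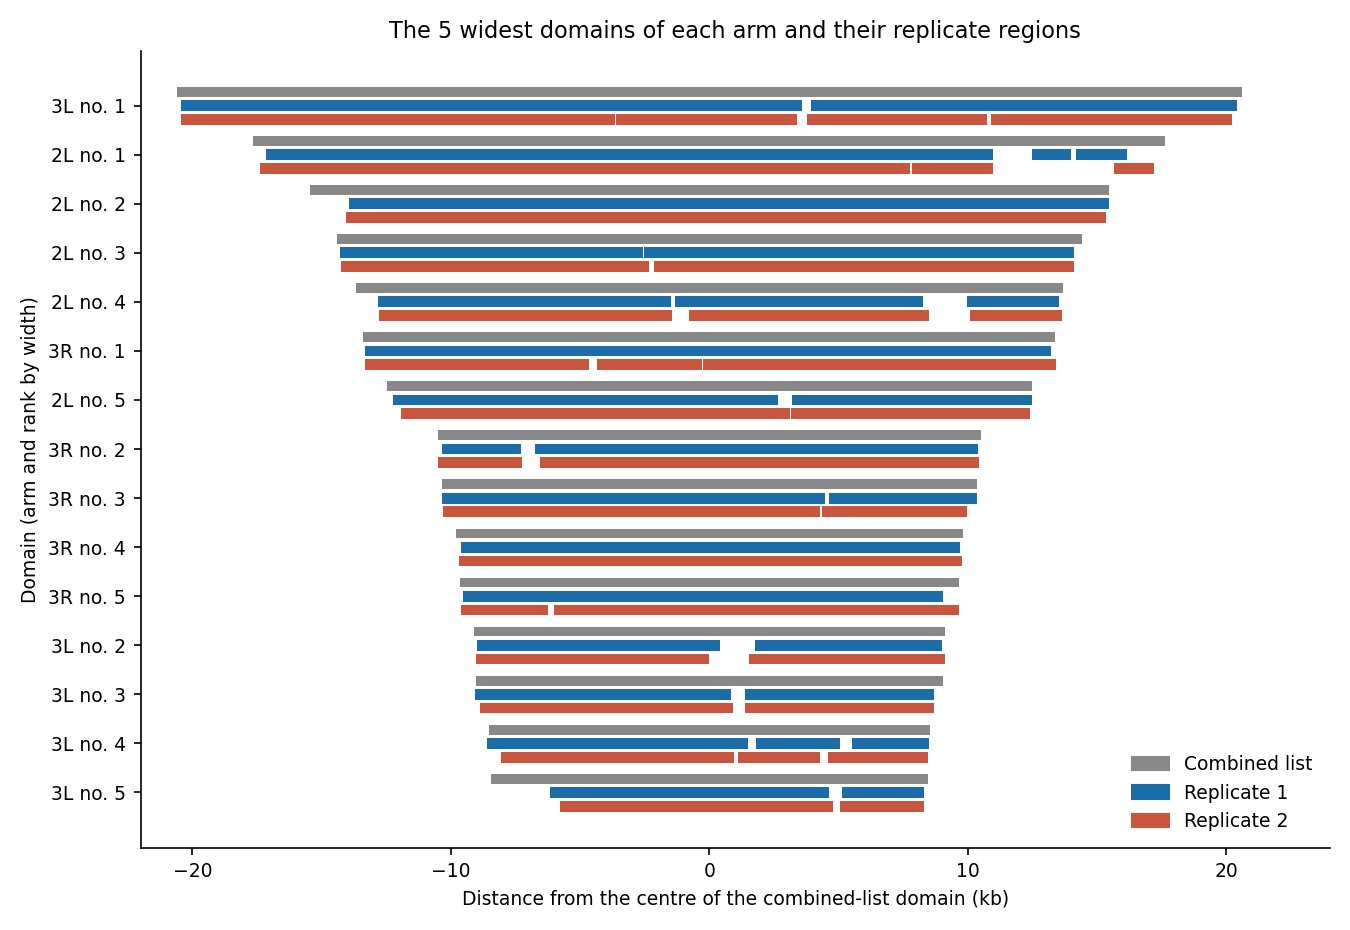
The 5 widest domains of each arm, ordered by width, as distance in kb from the centre of the domain in the combined list, with the regions of replicate 1 and replicate 2 drawn under each. Breaks fall at similar places in both replicates in most of the domains that are split in both, and the shortest gaps cannot be seen at this scale.

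The most fragmented domain lay on 2L from 9911004 to 9934526 (23.5 kb), with 5 regions in replicate 1 and 4 in replicate 2. The left regions scored high and the right ones low in both. In replicate 1 they were 2.35, 1.83, 0.592, 0.636 and 0.705, and in replicate 2 they were 2.37, 1.78, 0.624 and 0.700. The next domain along 2L, from 9946656 to 9974012 (27.4 kb), also had a low right end. Its first regions of 11336 and 11334 bp scored 1.82 and 2.02, its second regions 1.84 and 1.88, and its last regions 0.941 and 0.907, beyond gaps of 1688 and 1585 bp.

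A low stretch could also lie in the middle. On 3L, the domain from 17013308 to 17030354 (17.0 kb) began with a region scoring 1.97 in replicate 1 and 2.24 in replicate 2, and ended with one scoring 1.77 and 1.68. Between them replicate 1 had 2 regions of 1886 and 1347 bp scoring 0.626 and 0.680, and replicate 2 had 1 of 3165 bp scoring 0.890. On 2L, the domain from 19428742 to 19447096 was called differently by the replicates. Replicate 1 gave its right part as 11.1 kb scoring 1.69, and replicate 2 divided the same stretch into parts scoring 0.682, 0.660 and 2.86.

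The gaps were short and mostly central. Replicate 1 had 92 gaps inside wide domains with a median length of 351 bp (quartiles 121 and 619), and replicate 2 had 109 with a median of 278 bp (110 and 521). Gaps of up to 200 bp made up 39.1% and 37.6%, and those over 1 kb 15.2% and 10.1%. The midpoint lay between 25% and 75% of the domain's length for 75 of 92 gaps in replicate 1 and 83 of 109 in replicate 2. The median distance to the nearer edge was 3766 and 3874 bp. The narrowest region was 1301 bp in replicate 1's whole list and 1304 bp in replicate 2's, so a gap nearer to an edge than that could hardly be called. Nothing is therefore read from the central position of the gaps.

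Gap position was not used to choose the domains. A gap of one replicate counts as matched when it overlaps a gap of the other by at least 1 bp. Matched were 52 of the 92 gaps in replicate 1 (56.5%, Wilson interval 46.3 to 66.2) and 51 of 109 in replicate 2 (46.8%, 37.7 to 56.1). Within the domains that both lists split, 52 of 71 gaps of replicate 1 (73.2%) and 51 of 73 of replicate 2 (69.9%) were matched, with midpoints a median of 124 and 117 bp apart. Among gaps over 1 kb, 12 of 14 and 8 of 11 were matched. Unmatched gaps had medians of 180 bp in replicate 1 and 210 bp in replicate 2, against 448 and 365 bp for the matched. A longer gap meets 1 bp of overlap more easily, so nothing is read from matching by gap length. No test of these shares against chance was made.

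The longest gap of replicate 1 was matched only in part. On 3L, the domain from 9421772 to 9430106 had a gap of 2009 bp in replicate 1, which covered 75.9% of the domain, and of 162 bp in replicate 2, which covered 94.9%. On 3R, the domain from 4082264 to 4093348 likewise had gaps of 1558 and 165 bp at its left break. In both cases the left region ended close by in the 2 lists, at 9424850 and 9424893 on 3L and at 4084145 and 4084518 on 3R, and the right region began apart. On 3R, the domain from 4820770 to 4836250 differed the other way. Replicate 2 left 2890 bp open where replicate 1 had most of a region of 1763 bp scoring 0.608.

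Breaks often separated parts of unlike score. The median score step across a gap was 0.688 in replicate 1 and 0.656 in replicate 2, and the highest was 2.06 and 2.28. Of the split domains, 31 of 80 in replicate 1 (38.8%) and 35 of 93 in replicate 2 (37.6%) had parts on both sides of a score of 1, and 21 did so in both lists. Parts scoring below 1 were 40 of 172 in replicate 1 (23.3%) and 43 of 202 in replicate 2 (21.3%). Of whole domains 0 of 237 scored below 1 in replicate 1 and 0 of 224 in replicate 2. Such counts allow shares of up to 1.27% and 1.34%. In the combined list 30.7% of all interior regions scored below 1, and 7.60% of the other regions from 4 to 7 kb did. Parts are narrower than the domains they lie in, with median widths of 4180.5 and 4327.5 bp. Nothing is therefore read from the difference between parts and whole domains. Across gaps of up to 200 bp the median step was 0.579 and 0.625, and across longer gaps it was 0.728 and 0.712. No such step between other neighbouring regions is given here, nor a share with scores on both sides of 1. Unlike scores across a break are therefore not taken as particular to wide domains.

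The side of the higher part was the same in both replicates almost throughout. Of the 45 domains with 2 regions in both lists, 36 had gaps that overlapped. In 34 of these 36 (94.4%, Wilson interval 81.9 to 98.5) the same side scored higher in both replicates, the left in 17 and the right in 17. In the other 2 the sides differed. The size of the difference had a median of 0.810 in replicate 1 and 0.721 in replicate 2, and the signed differences followed each other (Spearman rho 0.980 over 36 domains, a description). The gap lengths of these domains were less alike, with a rho of 0.336. Left and right are those of the build, and bear no relation to the direction of any gene here.

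**Figure D4:**
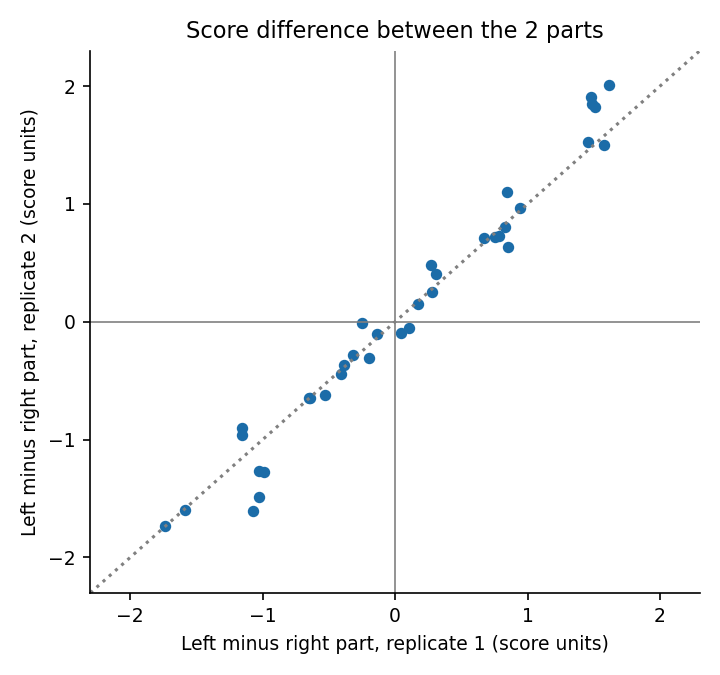
Score of the left part minus that of the right part in replicate 1 (horizontal axis) and replicate 2 (vertical axis), in the authors' score units, for the 36 domains with 2 parts and overlapping gaps in both lists. The dotted line marks equal values, and 34 of the 36 points lie in the quadrants where both replicates have the same sign.

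Replicate regions filled most of each domain. The median share of a domain covered was 97.1% in replicate 1 and 96.0% in replicate 2, with lower quartiles of 92.0% and 90.9%. At least 90% was covered in both lists in 228 of 317 domains (71.9%), against 53.1% of all interior regions. Only 82.0% of all interior regions were found in both lists, and those missing from a list count as not covered. An edge shift of equal length also takes a larger share of a narrow region, so nothing is read from that difference. Gaps made up only 21.8% and 21.0% of the uncovered length, 199 kb in replicate 1 and 236 kb in replicate 2, and the rest lay at the edges. The first replicate region began inside the domain in 279 domains in replicate 1 and 296 in replicate 2, by a median of 96 and 112 bp over all domains. At the right edge the calls ended inside in 274 and 297, by a median of 75 and 105 bp.

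Edges shortened by over 1 kb were found in 37 domains in replicate 1 and 50 in replicate 2. Of these 28 and 38 were whole in that list, so there the combined domain ran past the only replicate region in it. The same edge was often concerned: the left edge was short in 22 and 25 domains and in 15 of them in both, the right edge in 16 and 25 and in 12 in both. The least covered domain in replicate 1, on 2L from 19027058 to 19036738, was called for only 43.2% of its 9681 bp in replicate 1 and for 57.8% in replicate 2. The calls began 5000 and 3812 bp inside the left edge. The least covered in replicate 2, on 3R from 17596600 to 17605106, was 91.8% covered by 2 regions in replicate 1, scoring 0.753 and 1.37, and 37.6% covered by 1 region in replicate 2, scoring 1.94.

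2 further domains were little covered. On 3L, the domain from 21480738 to 21487798 was 53.4% covered in replicate 1 and 68.1% in replicate 2, again with the left flank missing, by 3269 and 2218 bp. On 3R, the domain from 21497210 to 21509314 was 81.9% and 57.6% covered, with the left 2093 and 4887 bp missing. The scores of what remained were 2.47 and 3.05, above the 2.33 of the combined list. Under 75% coverage was found in 11 domains in replicate 1 and 13 in replicate 2.

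Wide domains seldom stood alone. The nearest combined-list region lay a median of 1541 bp away (quartiles 577 and 3553), against 2235 bp for the other interior regions. On the farther side the median was 11.0 kb, against 21.1 kb. A neighbour lay within 1 kb of 120 domains (37.9%, Wilson interval 32.7 to 43.3), against 32.0% of all interior regions. On both sides such a neighbour was found for 19 (5.99%, against 3.9%). A neighbour within 200 bp was found for 27 (8.52%, against 7.85%), a share near that of all interior regions. Only 10 domains had no neighbour within 20 kb on either side (3.15%, Wilson interval 1.72 to 5.71, against 9.05%). The number of regions within 50 kb had a median of 5 for wide domains and of 5 for the others. None of these differences was tested, and a wide region takes up sequence that another could have filled.

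**Figure D5:**
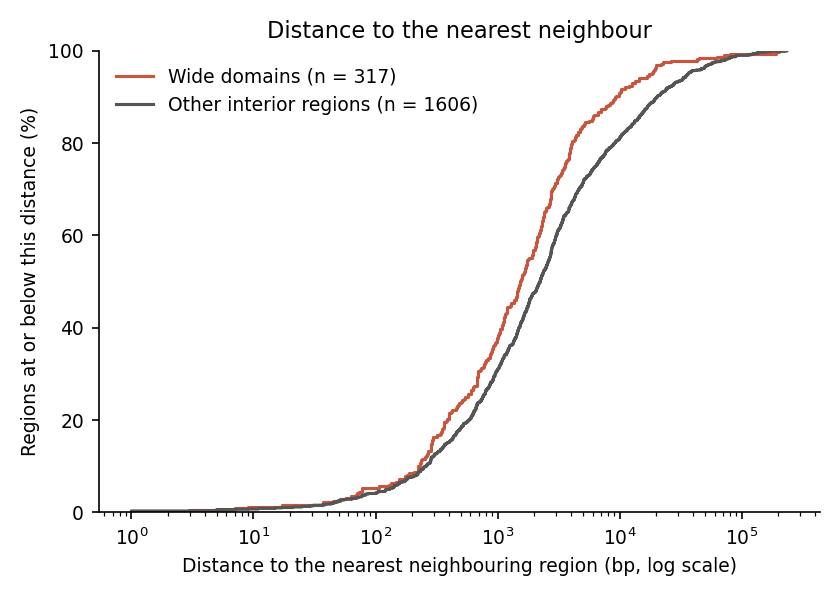
Cumulative share of regions (vertical axis, percent) by distance to the nearest neighbouring combined-list region (horizontal axis, bp, log scale), for the 317 wide domains and the 1606 other regions inside the 3 arms. The curves run together below about 200 bp and then part, with medians of 1541 and 2235 bp.

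The neighbours were mostly narrower and lower in score than the domains, which had been chosen by width. The nearest neighbour had a median width of 3827 bp and a median score of 1.74. For the other interior regions these medians were close, at 3700 bp and 1.70, so such neighbours are not particular to wide domains. Of the nearest neighbours, 57 of 317 were themselves wide (18.0%, Wilson interval 14.1 to 22.6), against 18.6% over all interior regions. The nearest neighbour was found in both replicate lists for 262 domains (82.6%, against 82.0% of all interior regions) and in neither for 34 (10.7%). Where the neighbour lay within 200 bp it scored below 1 in 9 of 27 cases, from over 200 bp to 1 kb in 32 of 93, and beyond 1 kb in 53 of 197. Of all interior regions 30.7% scored below 1, so nothing is read from these counts. The neighbour scored lower than the domain in 17, 72 and 131 of the 27, 93 and 197 cases. Wide domains scored above the other interior regions at the median, so nothing is read from that either.

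A wide domain lay directly beside another, with no region between, in 100 of the 317 (31.5%, Wilson interval 26.7 to 36.9), a share near the 30.0% of all interior regions that had a wide domain beside them. The 100 formed 37 runs of 2, 4 runs of 3, 2 runs of 4 and 1 run of 6, with 173 to 332501 bp between consecutive members. Successive wide domains of an arm were a median of 86.1 kb apart, and 17 of 314 such pairs were within 1 kb. The closest pair lay on 2L, from 10361118 to 10368142 and from 10368316 to 10389636, with 173 bp between them. The scores were unlike, 2.55 and 2.04, and neither replicate joined them: the second began 1014 bp inside its combined edge in replicate 1 and 691 bp in replicate 2. The second closest pair lay on 3R, from 6674194 to 6686828 and from 6687052 to 6702876, 223 bp apart, scoring 1.62 and 1.81.

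That pair on 3R was part of a nearly continuous stretch. With another wide domain 317 bp further on, it made 38.6 kb from 6674194 to 6712830 of which 98.6% was covered. The longest run was on 2L, where 6 wide domains from 10297742 to 10389636 covered 92.9% of 91.9 kb, with gaps of 173 to 2499 bp. Their scores were 2.08, 1.48, 2.19, 1.81, 2.55 and 2.04 from left to right, rising and falling by turns. All 6 were single regions in both replicates, covered for at least 95.2% in replicate 1 and 92.2% in replicate 2. In the replicates the same order of scores was seen, with 2.02, 1.47, 2.17, 1.74, 2.38 and 2.01 in replicate 1 and 2.16, 1.58, 2.26, 1.89, 2.75 and 2.12 in replicate 2.

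The 2 most isolated domains were called in both replicates. On 3R, the domain from 24159862 to 24167564 had its neighbours 344223 and 201261 bp away. Replicate 1 called it as a single region of 7704 bp and replicate 2 as 2 regions of 4102 and 3414 bp, 38 bp apart, scoring 1.81 and 2.08. On 3L, the domain from 18098136 to 18108740 was 191181 and 344193 bp from its neighbours and was a single region in both lists, at 96.7% and 97.6% of its length, scoring 2.11 and 2.38.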

How the data were processed

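H2Av immunoprecipitation libraries from S2-DRSC cells were analysed through 3 deposited lists of enriched regions, 1 per library and 1 for the replicate set, grouped by the titles. The description fields of replicate 2 of the immunoprecipitation and replicate 1 of the input go against their titles. Per the submitters' processing notes, Bowtie 0.12.7 was used. Per the file headers, coordinates are of FlyBase release 5. The caller, its threshold, its use of input and the way the replicates were combined are not stated there. The score is the authors' value as deposited, without a stated scale. Region starts and ends are base positions as the authors deposited them.

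From these lists domains were chosen by width and position, replicate regions were assigned to a domain by 1 bp of overlap, and gaps, edges and neighbours were measured. Neighbours could lie anywhere on the arm. All starts in the combined list fall on even bases, so its edges are on another grid than those of the replicates. With 2 libraries of 1 kind no comparison of conditions was possible, and no test was made. Shares have 95% Wilson intervals.

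Named domains followed a rule: the 5 widest and the narrowest of each arm, the 3 with most regions and the 3 with the longest gap in each replicate, the 2 least covered in each, the 2 lowest and 2 highest in score, the 2 closest pairs and the 2 farthest from a neighbour. The members, the lists and the rule were chosen with earlier results of these data known. The code was tested on simulated lists with planted breaks. Alternatives were a limit of 10 kb, a score filter, merging within 200 bp, 50% overlap, and each replicate alone. Python 3.11.15, NumPy 2.4.6, pandas 2.3.3, SciPy 1.17.1, statsmodels 0.14.6 and matplotlib 3.10.9 were used.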

Additional observations from a re-analysis of the deposited data

How the results depend on the processing

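No paired analysis was possible because the replicate numbers are shared only with the input libraries, for which no list was analysed here. Of 51 values recomputed under alternatives, 37 stayed within 1.5 times a count, the interval of a share or median, or the spread of the replicates. These include the coverage and gap medians of each replicate alone, which lie within the spread of the replicates by construction. The count is therefore no measure of how stable those medians are. A limit of 10 kb left 128 domains with a median of 12.7 kb, of which 32.8%, 42.2% and 25.8% were split in replicate 1, in replicate 2 and in both, and 43.4% of gaps were matched. Fewer and wider domains follow from that limit by construction. Keeping only regions at or above the median score gave a median score of 2.16 and, with fewer regions to meet, a distance of 3837 bp to the nearest neighbour. Merging regions within 200 bp, which removes the short gaps, gave a gap median of 458 bp, 58.5% of gaps matched and a neighbour at 1965 bp. Domains chosen from replicate 2 scored a median of 2.24, and the cause was not tested. Leaving out either replicate gave 25.2% to 29.3% of domains split in place of 18.6% in both, since a single list has then to be split, and gap medians of 278 to 351 bp. Matching gaps by midpoints within 500 bp, an alternative added after the data were seen, matched 53.7%.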

Other observations

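A single record of replicate 2, on 3L from 3417313 to 3419170 with a score of -0.0299, is typed as depletion and not enrichment. It overlapped 0 wide domains, and the nearest lay 223 kb away.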
